A study of Mus musculus with 12 samples.

Results

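H3K4me3, the trimethylation of histone H3 at lysine 4 that marks active promoters, was examined at 10 genes that break down the branched-chain amino acids (BCAAs) leucine, isoleucine and valine or control that breakdown. The members were all peaks whose assigned gene is *Bcat2*, *Bckdha*, *Bckdhb*, *Dbt*, *Bckdk*, *Ppm1k*, *Ivd*, *Mccc1*, *Hibadh* or *Klf15*. This rule used no measured value, but the genes were chosen with earlier results of these data known. Each gene had a single peak, which gave 10 member peaks of 15848, and 10 of 10 passed the filter of a mean value of at least 10 that kept 15039 peaks for testing. H3K4me3 chromatin immunoprecipitation and sequencing (ChIP–seq) was done on nuclei of adult mouse cardiomyocytes (CMs) sorted by flow cytometry with the nuclear marker PCM1. The 3 CtrlCre libraries came from mice with the αMHC-Cre transgene and intact *Cpt1b*, and the 3 Cpt1bcKO libraries from mice with the same transgene and loxP sites in both copies of *Cpt1b*. The transgene, which the αMHC (*Myh6*) promoter drives in CMs from before birth, is thus carried by both groups, and *Cpt1b* encodes the muscle isoform of carnitine palmitoyltransferase, which mitochondria need to take up long-chain fatty acids. Mice were on a C57BL/6 background. The labels call the CMs adult without giving an age. The study describes its replicates as biological, while the labels do not tie each library to an animal, and p-values here measure the spread between libraries.

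BCAAs are degraded in mitochondria. BCAT2 first moves the amino group to 2-oxoglutarate and leaves a branched-chain 2-oxoacid. The branched-chain 2-oxoacid dehydrogenase (BCKDH) complex then commits the carbon skeleton to oxidation, with the E1 subunits from *Bckdha* and *Bckdhb*, the E2 core from *Dbt* and an E3 subunit, *Dld*, that it shares with the pyruvate and 2-oxoglutarate dehydrogenases. The kinase BCKDK phosphorylates E1 and switches the complex off, and the mitochondrial phosphatase PPM1K switches it back on. Beyond the complex the pathways part, with IVD and MCCC1 in the leucine branch and HIBADH in the valine branch. KLF15 is a Krüppel-like transcription factor known in heart and skeletal muscle as an activator of BCAA breakdown genes.

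The question was whether H3K4me3 at these promoters differed once CMs could not import long-chain fatty acids. The values were counts in each peak normalized for depth by the authors and are called normalized counts here. Each difference is on the scale log2(value + 1), Cpt1bcKO minus CtrlCre, from limma across all tested peaks with Benjamini–Hochberg adjustment. At an adjusted p under 0.05, 0 of 10 member peaks differed, against 2.93% of all tested peaks (1.11% higher and 1.82% lower). At an unadjusted p under 0.05, 0 members were higher, against 5.84% of all tested peaks, and 1 member, *Ppm1k*, was lower, against 6.98%, which is 12.8% in either direction. The groups did not overlap at 2 members, *Dbt* and *Ppm1k*, and at 16.3% of all tested peaks. Values were higher in Cpt1bcKO for 6 members and lower for 4, beside 6200 higher and 5131 lower of 11331 tested peaks with an assigned gene. The median difference of the members was 0.017, against 0.006 over all tested peaks and 0.019 over those with an assigned gene. The member median ran from -0.07 without CtrlCre replicate 2 to 0.087 without CtrlCre replicate 1. Shares this close to the background are no result about these genes as a set.

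Libraries held between 763133 counts in peaks, in CtrlCre replicate 2, and 2766416, in Cpt1bcKO replicate 2. At the median peak counting error alone was 15.6% in CtrlCre replicate 2 and at least 8.26% in the others. Log2 values correlated at 0.914 to 0.967 between libraries. The *Cpt1b* peak (chr15:89421995-89431151) gave 428, 407 and 436 in CtrlCre and 572, 689 and 568 in Cpt1bcKO, a mark that does not check the deletion itself. All 8 cardiomyocyte marker genes had a peak, and 6 of the 27 endothelial, fibroblast, immune and mural marker genes did. Summed over their peaks, the other cell types' markers ranged from 295 to 410 in CtrlCre and from 153 to 236 in Cpt1bcKO, and the cardiomyocyte markers from 7184 to 8696 and from 5448 to 7741. Of the 9 cardiomyocyte marker peaks, 8 were lower and 1 higher in Cpt1bcKO. The paper reports reduced H3K4me3 mainly at CM identity genes, so the cardiomyocyte sum cannot gauge the share of CMs. No immune marker had a peak, and 1 of 7 endothelial and 1 of 7 fibroblast markers did. The mural peaks summed to 192, 261 and 163 in CtrlCre and to 100, 52 and 122 in Cpt1bcKO. Of these, 1 mural peak fell at an adjusted p under 0.05. The fibroblast peak (69, 58 and 68 against 59, 56 and 63) and the endothelial peak (39, 91 and 64 against 31, 45 and 51) overlapped between the groups. The part of these markers in the differences below was not tested.

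Promoter sequences are shown for 4 members. *Ppm1k* and *Bckdk* encode the opposing phosphatase and kinase, *Ivd* held the most CCAAT boxes, and *Klf15* was the member with CACGTG, the E-box to which basic helix-loop-helix factors such as the clock proteins bind. Each runs 5′ to 3′ on the strand of the gene from 250 bases before to 50 after the start site (RefSeq, GRCm38.p6), and capitals mark each match, on either strand, to the CCAAT box (CCAAT), the GC box (GGGCGG), the E-box (CACGTG), the TATA box (TATAAA) or a nuclear receptor half-site (AGGTCA).
Ppm1k (chr6:57535438-57535737, minus strand): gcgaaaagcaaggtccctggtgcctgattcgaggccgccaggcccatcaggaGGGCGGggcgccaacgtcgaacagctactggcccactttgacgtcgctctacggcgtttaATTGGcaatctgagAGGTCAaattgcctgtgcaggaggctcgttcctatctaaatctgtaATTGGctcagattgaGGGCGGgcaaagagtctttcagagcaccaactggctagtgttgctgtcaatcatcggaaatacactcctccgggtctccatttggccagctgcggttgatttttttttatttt
Bckdk (chr7:127903823-127904122, plus strand): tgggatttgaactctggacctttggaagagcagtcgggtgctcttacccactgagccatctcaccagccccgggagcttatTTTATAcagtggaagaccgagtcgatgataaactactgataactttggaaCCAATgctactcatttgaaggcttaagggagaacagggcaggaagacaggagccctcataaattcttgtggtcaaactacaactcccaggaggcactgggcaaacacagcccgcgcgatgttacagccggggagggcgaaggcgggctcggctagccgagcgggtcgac
Ivd (chr2:118861744-118862043, plus strand): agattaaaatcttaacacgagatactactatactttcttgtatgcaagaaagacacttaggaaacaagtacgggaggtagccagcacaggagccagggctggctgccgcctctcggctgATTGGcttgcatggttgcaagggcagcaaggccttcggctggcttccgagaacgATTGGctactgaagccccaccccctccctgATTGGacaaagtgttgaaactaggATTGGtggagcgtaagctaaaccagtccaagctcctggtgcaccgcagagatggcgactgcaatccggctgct
Klf15 (chr6:90462326-90462625, plus strand): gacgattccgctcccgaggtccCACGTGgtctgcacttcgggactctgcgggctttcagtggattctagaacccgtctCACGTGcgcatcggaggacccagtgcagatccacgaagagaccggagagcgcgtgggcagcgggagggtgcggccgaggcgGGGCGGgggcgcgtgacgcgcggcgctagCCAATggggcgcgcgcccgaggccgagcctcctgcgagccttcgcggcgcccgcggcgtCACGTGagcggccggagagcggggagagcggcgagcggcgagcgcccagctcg

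The RefSeq table held promoters for 9 of 10 members, and 10 promoters, 2 of them of *Bcat2*, started inside a member peak. *Dbt* had no entry. CCAAT, the letters of the CCAAT box to which NF-Y binds, lay in 7 of these 10 promoters, and in 37.4% of the 32851 promoters in the table. At least 2 copies were found in 4 member promoters, *Ivd* (4 copies), *Mccc1* (3), *Ppm1k* (2) and *Bckdhb* (2), against 11.7% of all promoters. GGGCGG, the GC box, lay in 5 of 10 against 35.7% of all, and AGGTCA, a nuclear receptor half-site, in 3 of 10 against 16.3%. CACGTG was found only at *Klf15* among these 10, where it occurred 3 times, whereas 0.594% of all promoters held at least 2 copies. TATAAA lay only in the *Bckdk* promoter among the 10, against 13.6% of all, in the part of that window upstream of the peak. The *Bckdha* promoter and both *Bcat2* promoters held none of the 5 motifs. CpG counts ran from 8 in *Mccc1* to 47 in *Klf15*, with a median of 13.5 against 7 over all promoters. The 10 member promoters all start inside an H3K4me3 peak, while the background holds every promoter, marked or not. The shares and CpG counts are thus not compared with marked promoters alone. These matches describe letters in 300-base windows and not bound sites.

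The member peaks differed widely in length while all 10 covered the start site of their gene. Peaks over 2222 bases (the 75th percentile of tested peaks) are called broad and peaks under 1030 bases (the 25th) narrow. Of the members, 5 were broad, 4 medium and 1 narrow. The *Bcat2* peak was the longest, 3738 bases, at the 92.7th percentile, and reached 2192 bases upstream and 1546 bases downstream of the start site. *Klf15* (3342 bases), *Ppm1k* (2881), *Ivd* (2440) and *Hibadh* (2348) were the other broad peaks. The medium peaks were those of *Bckdha* (1985 bases), *Mccc1* (1632), *Dbt* (1404) and *Bckdhb* (1123). The *Bckdk* peak, at 724 bases and the 12th percentile, was the narrow one and began only 94 bases before the start site. Of the 10 peaks, 9 extended farther downstream than upstream, *Bcat2* being the exception. The summit lay 119 to 598 bases downstream of the start in 9 peaks, and at position -294, upstream of it, in *Bckdhb*.

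**Figure D1:**
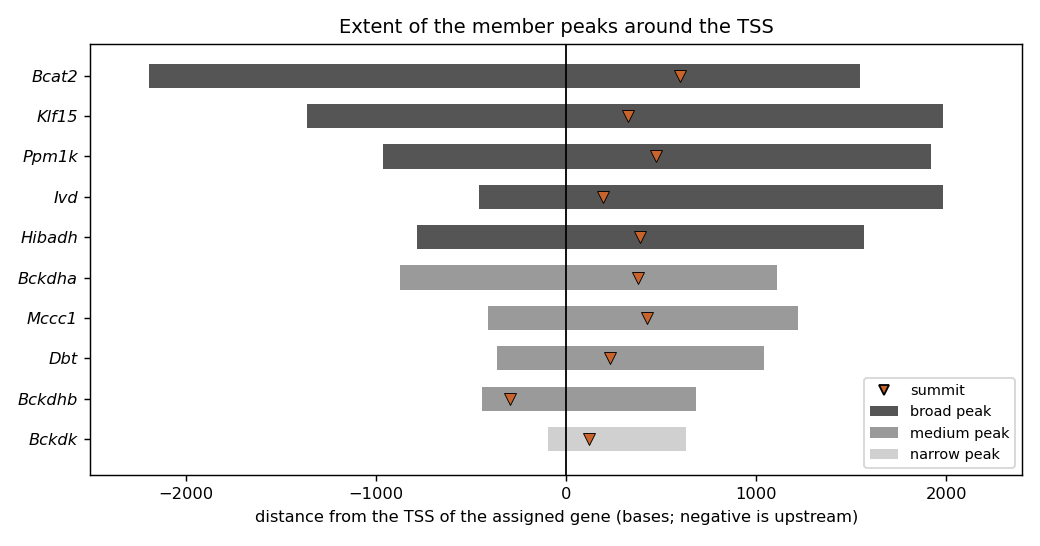
Extent of each member peak around the start site (TSS) of its gene, in bases with negative values upstream, shaded by width class; triangles mark summits. The peaks run from 724 bases at *Bckdk* to 3738 bases at *Bcat2*, and the *Bckdhb* summit is the one upstream of the start.

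Width here is that of a region merged over both groups, so it cannot differ between them. By the GENCODE vM21 annotation, between 4.49% (*Klf15*) and 66.7% (*Hibadh*) of a member peak lay in exons of its gene, with the rest in its introns or outside the gene. For 7 of 10 peaks another annotated gene overlapped. The *Bckdha* peak shares 34.8% of its length with *Exosc5*, a protein-coding gene of the RNA exosome that starts in the peak on the opposite strand, so its signal cannot be ascribed to *Bckdha* alone. The other 6 overlaps were with non-coding genes, among them an antisense transcript over 100% of the *Bcat2* peak and *Mccc1os* over 77% of the *Mccc1* peak. *Gm45193*, on the strand opposite to *Ppm1k*, covered 100% of the *Ppm1k* peak from a start outside it. ChIP–seq carries no strand, and reads of such pairs cannot be told apart.

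*Bcat2*, the transaminase of the entry step, had its peak at chr7:45567961-45571699. Normalized counts were 116, 88 and 118 in CtrlCre replicates 1 to 3 and 89, 95 and 93 in Cpt1bcKO replicates 1 to 3. CtrlCre replicate 2 fell below all Cpt1bcKO libraries and the other CtrlCre libraries lay above them, so the groups overlapped. Means were 107 ± 16.8 (SD, n = 3) and 92.3 ± 3.06 (SD, n = 3). The difference was -0.20 (SE 0.14, adjusted p = 0.619, limma), within the spread of libraries. Without CtrlCre replicate 2, the shallowest library, it was -0.34 with an unadjusted p of 0.0213 in limma and an adjusted p of 0.272. It shrank to -0.14 without CtrlCre replicate 1 and to -0.13 without CtrlCre replicate 3, with unadjusted p of 0.404 and 0.436 in limma.

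Of the BCKDH subunits, *Dbt* showed the largest difference. Its peak (chr3:116512708-116514112), over the promoter of the E2 core that transfers the acyl group, gave 77, 84 and 85 in CtrlCre and 93, 114 and 91 in Cpt1bcKO. All Cpt1bcKO libraries lay above all CtrlCre libraries, which held for 7.8% of tested peaks in this direction. Means were 82 ± 4.36 and 99.3 ± 12.7 (SD, n = 3 each). The difference of 0.27 (SE 0.15, adjusted p = 0.464, limma) did not pass the test. Its 95% confidence interval ran from -0.03 to 0.57. Without Cpt1bcKO replicate 2, the high value, the difference was 0.17 with an unadjusted p of 0.331 in limma.

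The E1 subunits differed less. At *Bckdha* (chr7:25657870-25659855), the catalytic E1 alpha subunit, normalized counts were 183, 146 and 178 in CtrlCre and 174, 198 and 179 in Cpt1bcKO. CtrlCre replicate 2 was low and Cpt1bcKO replicate 2 high, and the other 4 libraries lay together. The difference was 0.12 (SE 0.11, adjusted p = 0.727, limma). At *Bckdhb* (chr9:83924704-83925827), the E1 beta subunit, they were 118, 98 and 105 in CtrlCre and 116, 100 and 106 in Cpt1bcKO, so the ranges coincided almost fully. The mean was 107 in both groups, with SDs of 10.1 and 8.08 (n = 3 each). The difference was 0.01, with a 95% interval from -0.27 to 0.28.

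The kinase and the phosphatase of the complex are the pair that sets its activity. *Bckdk* (chr7:127903988-127904712) gave 90, 88 and 87 in CtrlCre and 101, 90 and 90 in Cpt1bcKO. These 6 values were close, with a single tie at 90 joining the groups. Means were 88.3 ± 1.53 and 93.7 ± 6.35 (SD, n = 3 each), and the difference was 0.08 (SE 0.14, adjusted p = 0.883, limma).

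*Ppm1k* carried the highest normalized count of the 10 members. Its peak (chr6:57533507-57536388) gave 322, 277 and 304 in CtrlCre and 260, 246 and 234 in Cpt1bcKO. All Cpt1bcKO libraries lay below all CtrlCre libraries, which held for 8.46% of tested peaks in this direction. Means were 301 ± 22.6 and 247 ± 13.0 (SD, n = 3 each). The difference was -0.28 (SE 0.10), a fold of 0.821 with a 95% interval from 0.714 to 0.944. The unadjusted p was 0.00779 and the adjusted p 0.147 in limma, so it did not pass over all peaks. The unadjusted p rose to 0.0511 without CtrlCre replicate 1, where the adjusted p was 0.427, and the difference was -0.35 to -0.23 over the 15 alternatives.

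Within each library the log2 ratio of the *Bckdk* to the *Ppm1k* value was -1.83, -1.64 and -1.79 in CtrlCre and -1.36, -1.44 and -1.37 in Cpt1bcKO. This ratio, which needs no scaling between libraries, was higher in every Cpt1bcKO library. Means were -1.75 ± 0.10 and -1.39 ± 0.05 (SD, n = 3 each). It was picked after the values had been seen and is given without a test.

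**Figure D2:**
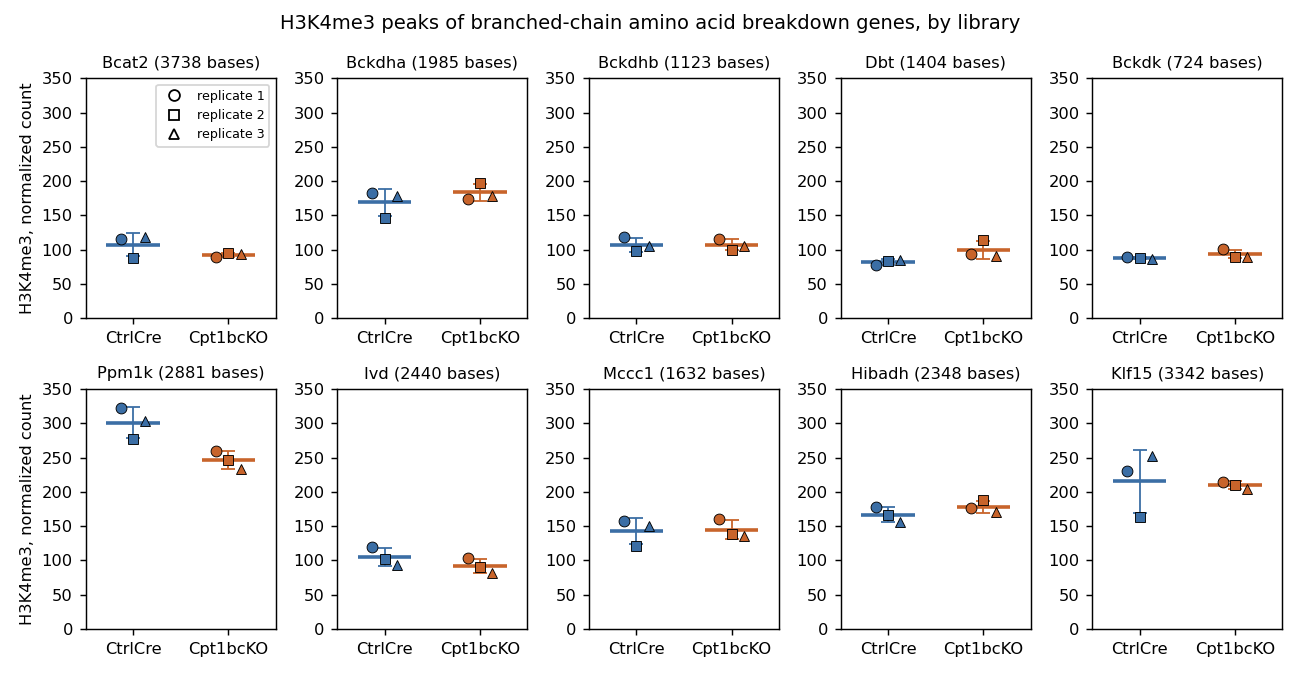
Normalized count (y axis, from 0) of each member peak in the 3 CtrlCre and 3 Cpt1bcKO libraries, with points for libraries, shapes for replicate numbers, thick lines for means and bars for SD (n = 3). The groups separate only at *Dbt*, higher in Cpt1bcKO, and *Ppm1k*, where 322, 277 and 304 stand above 260, 246 and 234.

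Past the complex, the leucine branch was represented by *Ivd* and *Mccc1*. *Ivd*, isovaleryl-CoA dehydrogenase, with 4 CCAAT boxes in the promoter printed above, had its peak at chr2:118861497-118863937. It gave 119, 102 and 93 in CtrlCre and 103, 90 and 82 in Cpt1bcKO. The Cpt1bcKO values were lower on average, 91.7 ± 10.6 against 105 ± 13.2 (SD, n = 3 each), but the ranges overlapped. The difference was -0.19 (SE 0.14, adjusted p = 0.664, limma). *Mccc1* (chr3:35999457-36001089), the biotin-containing subunit of methylcrotonyl-CoA carboxylase, gave 157, 121 and 150 in CtrlCre and 161, 138 and 136 in Cpt1bcKO. Both groups spanned similar values, and the difference was 0.03 with a 95% interval from -0.23 to 0.28.

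*Hibadh* (chr6:52638823-52641171), the 3-hydroxyisobutyrate dehydrogenase of the valine branch, gave 178, 167 and 156 in CtrlCre and 177, 188 and 170 in Cpt1bcKO. Its ranges overlapped. The difference was 0.10 (SE 0.11, adjusted p = 0.795, limma).

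*Klf15* (chr6:90461214-90464556), the transcription factor of the set, gave 231, 163 and 252 in CtrlCre and 215, 210 and 204 in Cpt1bcKO. The CtrlCre libraries were spread on both sides of the Cpt1bcKO libraries. The SD was 46.5 around a mean of 215 in CtrlCre and 5.51 around 210 in Cpt1bcKO (n = 3 each). The difference was -0.01 (SE 0.13), with a 95% interval from -0.28 to 0.25. CtrlCre replicate 2, the shallowest library, was the low value. It held 70 recovered reads in this peak, not scaled for depth, against 190 to 323 in the other libraries. Without that library the difference was -0.20 with an unadjusted p of 0.0628 in limma. Without CtrlCre replicate 3 it was 0.11 with an unadjusted p of 0.405 in limma.

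**Figure D3:**
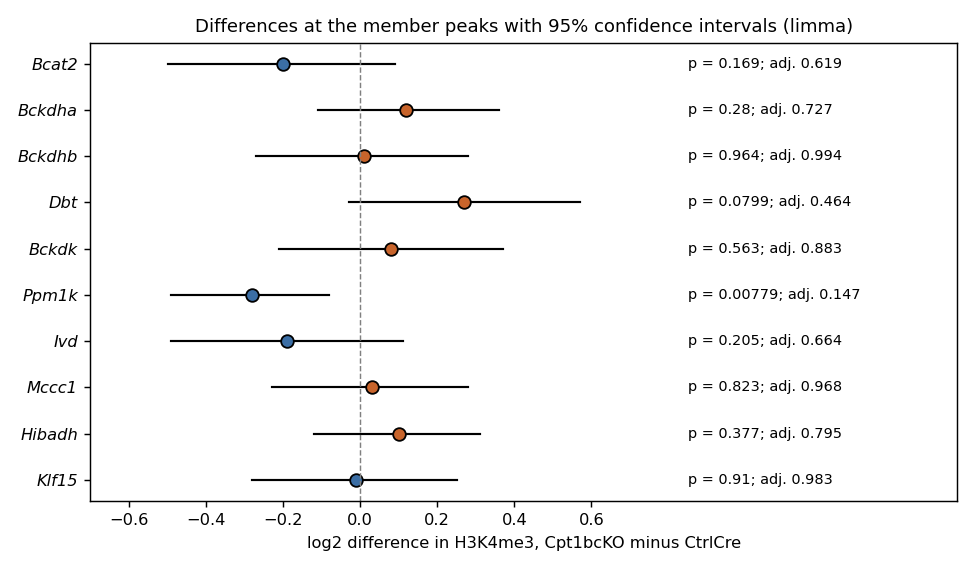
Log2 difference (Cpt1bcKO minus CtrlCre, x axis) of each member peak with its 95% confidence interval from limma, and the unadjusted and adjusted p beside it. Blue points are below 0 and orange points above. Only the *Ppm1k* interval, from -0.49 to -0.08, leaves out 0, and its adjusted p is 0.147.

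The 95% intervals limit how large a difference, relative to the bulk of peaks, these libraries leave room for. A shift shared by all peaks would not show in them. The paper reported lower H3K4me3 by western blot of Cpt1bcKO CM nuclei. For *Bckdha*, *Bckdhb*, *Bckdk*, *Mccc1*, *Hibadh* and *Klf15* the intervals ran within folds of 0.826 to 1.29. For *Dbt* the upper bound was a fold of 1.48, and for *Bcat2* and *Ivd* the lower bounds were folds of 0.707 and 0.713. On simulated counts for this comparison over 15039 peaks, 66% of peaks changed 2-fold and 13% of peaks changed 1.5-fold were recovered at an adjusted p under 0.05. The simulated spread between libraries was set by hand and not fitted to these data, and the changed peaks were drawn from all levels. These shares therefore do not give the power at the member peaks.

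Summed over the 10 members, normalized counts were 1591, 1334 and 1528 in CtrlCre and 1489, 1469 and 1385 in Cpt1bcKO. The sums overlapped, with means of 1484 ± 134 and 1448 ± 55.2 (SD, n = 3 each). The low sum of CtrlCre replicate 2 was shared by many members, since 6 of 10 had their lowest CtrlCre value there. Cpt1bcKO replicate 3 alone held the lowest value of its group for 6 of 10 members, and it tied for the lowest at *Bckdk*, at 90.

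Levels between genes were compared per kb of peak. In CtrlCre, *Bckdk* had the densest mark, 122 normalized counts per kb, followed by *Ppm1k* with 104 and *Bckdhb* with 95.3. *Mccc1* (87.4), *Bckdha* (85.1), *Hibadh* (71.1), *Klf15* (64.4) and *Dbt* (58.4) came next in normalized counts per kb, and *Ivd* (42.9) and *Bcat2* (28.7) were lowest. *Bckdk* was thus the narrowest and densest peak and *Bcat2* the longest and sparsest. Of neighbours in this order, ranges of the 3 CtrlCre libraries were apart only between *Bckdk* and *Ppm1k*, between *Dbt* and *Ivd*, and between *Ivd* and *Bcat2*. The other 6 neighbouring pairs overlapped.

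In Cpt1bcKO the order began with *Bckdk* (129 normalized counts per kb), *Bckdhb* (95.6), *Bckdha* (92.5) and *Mccc1* (88.8). *Ppm1k*, next to *Bckdk* in CtrlCre, came after these 4 with 85.6. *Ivd* (37.6) and *Bcat2* (24.7) were again the lowest. Averaged over both groups, the *Bckdk* density lay at percentile 97.1 of tested peaks and that of *Bcat2* at percentile 15.2.

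**Figure D4:**
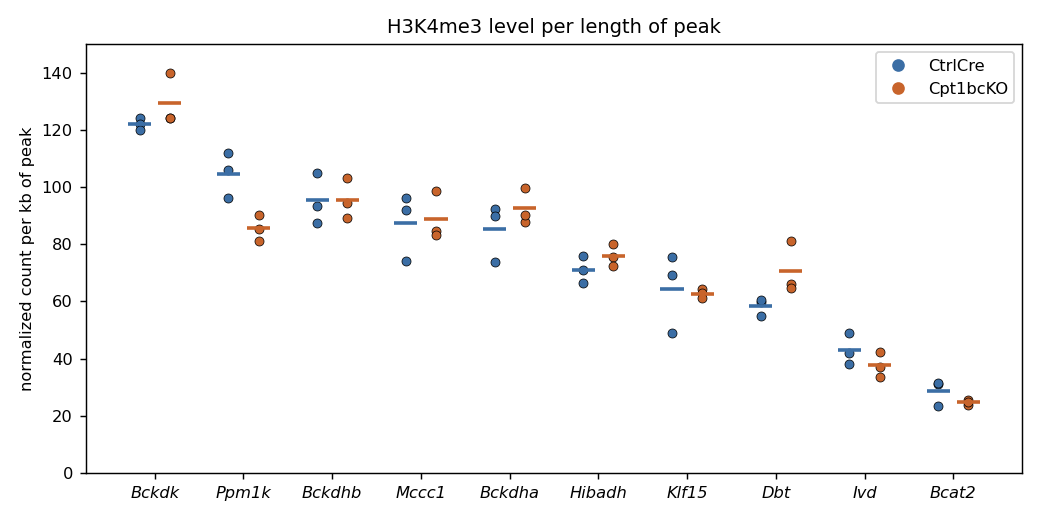
Normalized count per kb of peak (y axis, from 0) for each member, ordered by the CtrlCre mean, with a point for each library and a line for each group's mean. *Bckdk* stands highest in both groups, at 122 and 129, and *Bcat2* lowest, at 28.7 and 24.7.

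The other genes of the pathway were read from lists. Counts of higher and lower values in the lists below were not tested. Among the 11331 tested peaks with an assigned gene, 6200 were higher and 5131 lower. Of the amino acid carriers for uptake and mitochondrial import, 7 of 7 had a peak and 0 passed an adjusted p of 0.05, with 6 higher and 1 lower value and a median of 0.15. The highest difference was at *Slc7a5*, the large neutral amino acid transporter LAT1. Its values were 59, 72 and 84 in CtrlCre and 105, 82 and 89 in Cpt1bcKO. They overlapped between the groups, and the difference was 0.36 (SE 0.17, adjusted p = 0.350, limma). The lowest was at *Slc7a8*, another carrier of large neutral amino acids, with -0.08.

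Of 15 further breakdown enzymes, 11 had a peak and 0 passed the test. Values were higher for 8 and lower for 3, with a median of 0.070. *Hadhb*, the beta subunit of the mitochondrial trifunctional protein of fatty acid oxidation, had the highest difference on this list. It gave 658, 597 and 661 in CtrlCre and 759, 924 and 733 in Cpt1bcKO. The groups did not overlap, which held for 7.8% of tested peaks in this direction. The difference was 0.33 (SE 0.11, adjusted p = 0.126, limma). The adjusted p was 0.00495 after quantile normalization and 0.0776 to 0.382 under the other alternatives. *Bcat1*, *Acadsb* and *Hadha* were among the 4 genes with no peak of their own name. Overlaps with other genes were examined only for the member peaks, so these starts may lie under a peak named for another gene.

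Of the 8 genes that carry propionyl-CoA, a product of isoleucine and valine, to succinyl-CoA, 6 had a peak and 0 passed the test. Their differences ran only from -0.02 at *Mmaa* to 0.14 at *Mmadhc*, both genes of cobalamin handling, with a median of 0.061. *Mcee* and *Mmab* had no peak of their own name.

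The pyruvate, 2-oxoglutarate and 2-oxoadipate dehydrogenases are built like BCKDH, and the pyruvate complex has dedicated kinases and phosphatases, which the list includes. All 16 of these genes had a peak, and 1 of 16, *Pdk4*, rose at an adjusted p under 0.05, a direction that held for 1.11% of all tested peaks. *Pdk4* encodes a kinase that switches off pyruvate dehydrogenase. The paper reported no increase in the level of PDK4 in *Cpt1b*-deficient CMs, and a promoter mark measures neither RNA nor protein. The *Pdk4* peak gave 239, 300 and 305 in CtrlCre and 499, 548 and 314 in Cpt1bcKO, with Cpt1bcKO replicate 3 just above the controls. The difference was 0.66 (SE 0.15, adjusted p = 0.0121, limma). This call was lost when a single library was left out, with adjusted p of 0.125 without CtrlCre replicate 1, 0.116 without Cpt1bcKO replicate 1 and 0.11 without Cpt1bcKO replicate 2. The lowest difference was at *Pdp2*, a pyruvate dehydrogenase phosphatase, with -0.14, and the median was 0.026. Whether *Pdk4* differed from *Bckdk* in its response was not tested.

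Of 16 other KLF factors, 14 had a peak, with 2 peaks for *Klf9*, and 0 of the 15 peaks passed the test. Values were lower for 11 and higher for 4, with a median of -0.092. *Klf2*, a factor best known from endothelial cells, had the lowest difference. It gave 165, 153 and 195 in CtrlCre and 122, 129 and 137 in Cpt1bcKO, without overlap, which held for 8.46% of tested peaks in this direction. Of the 15 peaks, 2 were lower and 1 higher without overlap. The *Klf2* difference was -0.39 (SE 0.12, adjusted p = 0.0752, limma). The adjusted p was 0.0267 without CtrlCre replicate 2 and 0.0395 with limma-voom on recovered counts, and 0.0668 to 0.515 under the other alternatives. The single endothelial marker with a peak ranged from 39 to 91 in CtrlCre and from 31 to 51 in Cpt1bcKO, and the part of such cells in the *Klf2* value was not tested. The highest was at *Klf10*, a TGF-beta-induced factor, with 193, 170 and 201 in CtrlCre and 214, 234 and 252 in Cpt1bcKO, a difference of 0.31 (SE 0.10, adjusted p = 0.139, limma).

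**Figure D5:**
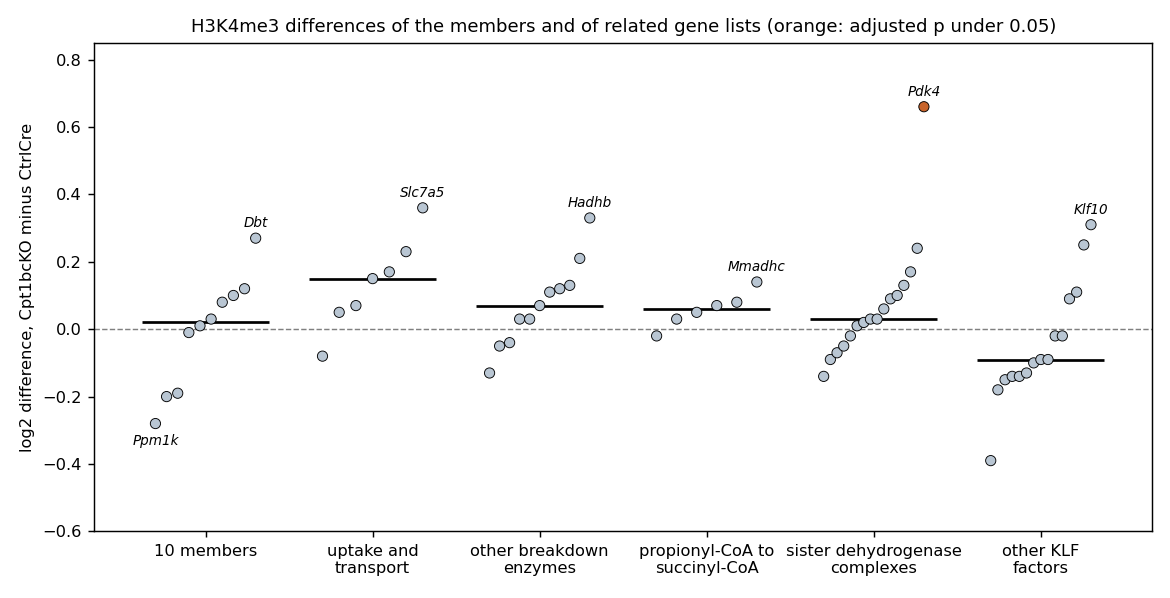
Log2 difference (Cpt1bcKO minus CtrlCre, y axis) of each peak of the 10 members and of the 5 related lists, with a line at each median and the highest gene of each list named. *Pdk4* at 0.66 is the single peak drawn in orange for an adjusted p under 0.05, and the members lie between -0.28 and 0.27.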

How the data were processed

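H3K4me3 ChIP–seq of 3 CtrlCre and 3 Cpt1bcKO libraries was analysed from a table of union peaks, and the input libraries were not used here. Per the study's methods and processing notes, the authors trimmed reads with Trimmomatic 0.39, aligned them to mm10 (GRCm38) with STAR 2.6.1d, removed duplicates with Picard 2.21.7, called peaks in each ChIP library against input with MUSIC, merged them, and assigned each to the nearest promoter within 5000 bases. The deposited value per library is the count in the peak divided by a DESeq2 1.26.0 size factor and rounded to whole numbers by the authors, so it was handled as a score, since it is no longer a raw count. Size factors set the bulk of peaks to no change, so a shift shared by all peaks would not be visible. The authors' unrounded genotype means, a mean signal, were used only to recover counts. The deposited fraction of each peak in the gene body was not tested. Fold changes and p-values of the authors' own DESeq2 comparison are also in the table and were not used.

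Whole counts were recovered by searching, in each peak, for those that fit the rounded values and the genotype means at once, with a single solution for 15848 of 15848 peaks and a largest gap of 1.3e-06 to the sum. A floor of 3 counts equals 1.95 to 6.97 normalized counts, depending on the library. Depth errors and floors cover counting error only. limma 3.58.1 (R 4.3.3; lmFit, eBayes with a trend) was fitted to log2(value + 1) with genotype alone, two-sided, over 15039 peaks with a mean of at least 10 (809 left out), with Benjamini–Hochberg adjustment and 95% confidence intervals. This scale understates changes of low peaks. The scripts were tested on simulated data. limma-voom on the recovered counts, an alternative, called 503 peaks against 441. Other alternatives were pseudocounts of 0.5 and 5, no filter or a mean of at least 50, quantile normalization, median ratio rescaling, thinning to the shallowest library, a replicate block and leaving out each library.

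All member peaks are named, with the peaks of each list that passed the test and its highest and lowest difference, and *Cpt1b* as the targeted gene, except 1 peak that is not reported here. The members and lists were chosen with earlier results of these data known. Peak coordinates are as the table gives them. All 15848 peaks lie inside the chromosomes of GRCm38.p6. Gene coordinates in GENCODE vM21 were the same as in the table for 8764 of 12686 assignments, and for all members but *Ppm1k* and *Mccc1*.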

Additional observations from a re-analysis of the deposited data

How the results depend on the processing

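Under all 15 alternatives 0 of 10 member peaks had an adjusted p under 0.05 in limma. The count at an unadjusted p under 0.05, 1 in the reported fit, was 2 (*Bcat2* and *Ppm1k*) with limma-voom on recovered counts and 0 to 2 when a library was left out (0 without CtrlCre replicate 1, 2 without CtrlCre replicate 2). Differences near 0 changed sign. *Bckdhb* was -0.0025 after quantile normalization, -0.0085 after median ratio rescaling, -0.052 with limma-voom, -0.092 after thinning, and -0.055, -0.0054 and -0.051 without CtrlCre replicate 2, CtrlCre replicate 3 and Cpt1bcKO replicate 1, within a leave-one-out range of -0.055 to 0.078. *Mccc1* was -0.061 with limma-voom, -0.022 after thinning, -0.085 without CtrlCre replicate 2 and -0.049 without Cpt1bcKO replicate 1 (leave-one-out range -0.085 to 0.10). *Klf15* was 0.034 after thinning, 0.048 without CtrlCre replicate 1, 0.11 without CtrlCre replicate 3 and 0.0052 without Cpt1bcKO replicate 3 (leave-one-out range -0.20 to 0.11). The other 7 members kept their direction, but their sizes moved when a library was left out: *Bcat2* ran from -0.34 to -0.13, *Bckdha* from 0.023 (without CtrlCre replicate 2) to 0.18, *Dbt* from 0.17 to 0.33, *Bckdk* from 0.027 (without Cpt1bcKO replicate 1) to 0.11, *Ivd* from -0.27 to -0.093 (without CtrlCre replicate 1), *Hibadh* from 0.047 (without CtrlCre replicate 3) to 0.14 and *Ppm1k* from -0.34 to -0.23. The member median, 0.017, changed sign to -0.057 with limma-voom and -0.00028 after quantile normalization, and ran from -0.07 to 0.087 with a library left out, below 0 without CtrlCre replicate 2 (-0.07) or Cpt1bcKO replicate 1 (-0.041). Of the lists, the further breakdown enzymes had 1 adjusted call (*Hadhb*) after quantile normalization, and a median of 0.019 with limma-voom and of 0.022 to 0.12 with a library left out. The propionyl-CoA list had medians of 0.024 to 0.12 with a library left out, the highest without CtrlCre replicate 3. The call of *Pdk4* was lost, 0 against 1, without CtrlCre replicate 1, Cpt1bcKO replicate 1 or Cpt1bcKO replicate 2. The KLF list had 1 call (*Klf2*) with limma-voom and 0 to 1 with a library left out. The cause of these changes was not tested. Over all tested peaks, 441 passed in the reported fit, 257 after thinning, and 229 to 431 with a library left out. The shallow depth of CtrlCre replicate 2 limits the precision of the controls.

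Replicate numbers are shared between the groups but nothing ties same-numbered libraries to a shared animal or day, and their deviations from the group means correlated at 0.076, -0.081 and 0.11. With the replicate number as a block, 0 of 10 members passed, *Ppm1k* had an unadjusted p of 0.0139 and an adjusted p of 0.225 in limma, the median member difference was 0.017, and 370 of all tested peaks passed. The block changed no call among the members or the lists.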
